A study of Homo sapiens with 4 samples.

Results

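The Notch genes described here are 10 genes of the pathway: the receptors NOTCH1, NOTCH2, NOTCH3 and NOTCH4, the ligands JAG1, JAG2, DLL1 and DLL4, and the targets HEY1 and HEYL. Their regions were chosen by position and by listing: every tile of 1000 bp in the 3 deposited tables of differential methylation that overlapped a gene's GENCODE span on hg19, extended by 5 kb on each side. This gave 41 distinct tiles at 8 of the 10 genes, out of 72455 distinct tiles in the 3 tables. A tile enters a table only with a difference of at least 25 percentage points and a q-value (adjusted p-value) under 0.01, so being listed is what selected the members and is no finding.

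DNA methylation was measured by reduced representation bisulfite sequencing (RRBS), in which the enzyme MspI cuts at CCGG and the reads start at the cut sites, in 4 libraries of SKOV3, an established ovarian cancer cell line. The M (mesenchymal) phenotype was represented by shC-S, which carries a control shRNA, and by LY75-R-S, made from sh-LY75-S cells by putting LY75 back as a cDNA that the shRNA cannot target. The label of this last library reads Ly75-OV-S, and its match to the LY75-R-S clone that the authors describe was inferred. The E (epithelial) phenotype was represented by sh-LY75-S, in which an shRNA lowers the antigen receptor LY75, and by LY75-KO-S, in which LY75 was knocked out with CRISPR. Each of the 4 is a clonal line with 1 library and no replicate. The knockdown comparison set shC-S against sh-LY75-S and the knockout comparison LY75-R-S against LY75-KO-S, so these 2 comparisons share no library, although LY75-R-S descends from the knockdown cells and not from the knockout. The third comparison, the mix, used the same 4 libraries again, both M against both E. With 1 library per clone the q-values compare these libraries and not the conditions, and a difference between clones cannot be told apart from a difference between M and E. The tables give no read count and no methylation level per library, so depth and the error of each value are unknown and every value below is a difference (percentage points, "points"), positive where the E library was more methylated. This sign is read from the order of the groups. The authors' names put shC-S first in the knockdown comparison but LY75-KO-S first in the knockout comparison. For the knockout comparison the sign therefore rests on a fit of the mix on both single comparisons over the 4250 tiles listed in all 3 tables. Both coefficients were positive (0.53 for the knockdown and 0.43 for the knockout). The fit ties the 3 comparisons to one another and not to E or M. Every direction below would turn if the order of all 3 were reversed, and those of the knockout comparison if its order alone were.

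Notch receptors are single-pass membrane proteins that are cut when a Jagged or Delta-like ligand on a neighbouring cell binds them. The released intracellular domain enters the nucleus, joins the DNA-binding protein RBPJ and switches on target genes, among them the HEY family of basic helix-loop-helix repressors. In epithelial cancers the pathway is known for its part in epithelial-mesenchymal transition and, in the vessels, in angiogenesis, and methylation of CpGs around a transcription start site (TSS) usually goes with low transcription, whereas within gene bodies the relation is looser. Expression was not measured in these libraries.

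Listed tiles were found at NOTCH1 (12 tiles), JAG2 (7), NOTCH3, DLL1 and DLL4 (5 each), HEYL (3), and NOTCH4 and JAG1 (2 each), and none was listed at NOTCH2 or HEY1. Among the 41 tiles, 19 held coding bases of the canonical transcript, 13 lay wholly in introns and 9 lay outside the transcript. There were 12 tiles within 2 kb of a TSS, measured from the nearer edge of the tile. A tile appeared in 1 table in 30 cases, in 2 tables in 9 and in all 3 in 2. The 2 tiles listed in all 3 comparisons were the TSS tile of HEYL and the exon 4 tile of DLL4, and both were more methylated in E each time. The RRBS design limits where a difference can be seen: in silico, reads of 50 bases from MspI fragments of 40 to 220 bp reached at least 1 CpG in 192 of the 542 tiles in the 10 windows, and these are called reachable below.

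Reference sequences at some of these tiles are shown first, because the number and place of CpGs decide what RRBS could read. The bases printed for NOTCH4 run past the end of its tile, in which no CpG lies within predicted reads. All are from the reference (GRCh37, the sequence of hg19), written 5′ to 3′ on the strand of the gene, with every CpG in capitals, and the tiles were picked after their values were seen. HEYL and NOTCH4 are the 2 genes with a listed tile that holds the TSS, and the 250 bases before their starts (RefSeq promoter table of GRCh38.p14, found unchanged in GRCh37, both on the minus strand, chr1:40105316-40105565 and chr6:32191845-32192094) hold 35 and 3 CpGs.
HEYL: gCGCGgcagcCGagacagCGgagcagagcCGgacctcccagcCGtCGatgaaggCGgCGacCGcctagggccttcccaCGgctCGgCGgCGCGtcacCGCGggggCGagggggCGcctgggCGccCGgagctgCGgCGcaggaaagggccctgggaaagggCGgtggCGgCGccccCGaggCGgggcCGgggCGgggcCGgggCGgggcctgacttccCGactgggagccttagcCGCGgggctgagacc
NOTCH4: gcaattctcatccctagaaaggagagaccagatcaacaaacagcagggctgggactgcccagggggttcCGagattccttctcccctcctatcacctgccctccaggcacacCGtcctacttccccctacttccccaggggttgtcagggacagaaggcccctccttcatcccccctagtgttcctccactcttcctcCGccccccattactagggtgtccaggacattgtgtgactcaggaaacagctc
The next 6 are single MspI fragments, from CCGG to CCGG, taken in each tile as the fragment with the most CpGs within predicted reads. The DLL4 fragment (plus strand, chr15:41223819-41223938) lies in exon 4, in the part that codes for the DSL domain with which Delta ligands bind Notch, and is the one reachable fragment of the DLL4 tile listed in all 3 comparisons. The NOTCH3 fragment (minus strand, chr19:15306399-15306622) lies in intron 2 and the NOTCH1 fragment (minus strand, chr9:139414692-139414827) in intron 4, each in a tile with a large difference in the knockdown comparison. The first JAG2 fragment (minus strand, chr14:105616954-105617067, exon 12, coding for an EGF-like repeat) and the DLL1 fragment (minus strand, chr6:170595856-170595946) belong to the 2 tiles whose sign was opposite in the 2 single comparisons. That JAG2 fragment runs past the edge of its tile, and 5 of its 10 CpGs lie in the tile within predicted reads. The second JAG2 fragment (minus strand, chr14:105633769-105633891, intron 2) belongs to a CpG-dense tile near the TSS that was less methylated in E.
DLL4: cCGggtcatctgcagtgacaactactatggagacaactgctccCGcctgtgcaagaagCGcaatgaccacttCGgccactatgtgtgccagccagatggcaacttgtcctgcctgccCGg
NOTCH3: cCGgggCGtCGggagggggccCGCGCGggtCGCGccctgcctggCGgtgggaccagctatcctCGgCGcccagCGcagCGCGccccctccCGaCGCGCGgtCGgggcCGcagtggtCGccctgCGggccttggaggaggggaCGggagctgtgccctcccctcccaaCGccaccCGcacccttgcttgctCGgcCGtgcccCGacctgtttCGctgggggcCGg
NOTCH1: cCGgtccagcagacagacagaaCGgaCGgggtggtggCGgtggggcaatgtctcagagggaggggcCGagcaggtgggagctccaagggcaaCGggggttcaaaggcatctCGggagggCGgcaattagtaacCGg
JAG2, exon 12: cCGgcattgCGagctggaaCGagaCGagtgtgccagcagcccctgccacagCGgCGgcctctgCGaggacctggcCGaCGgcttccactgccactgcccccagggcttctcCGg
JAG2, intron 2: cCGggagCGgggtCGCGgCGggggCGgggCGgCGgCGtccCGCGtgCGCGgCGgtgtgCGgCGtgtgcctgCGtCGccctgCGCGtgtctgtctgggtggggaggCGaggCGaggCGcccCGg
DLL1: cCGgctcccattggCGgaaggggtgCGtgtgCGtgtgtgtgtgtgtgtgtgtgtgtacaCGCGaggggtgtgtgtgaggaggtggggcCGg
The DLL4 fragment has 5 CpGs in 120 bases, whereas the JAG2 fragment of intron 2 has 24 in 123 and the NOTCH3 fragment 30 in 224.

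In the knockdown comparison 29 tiles were listed near the Notch genes, of which 21 were more and 8 less methylated in E. The share higher in E was 72.4% (95% Wilson interval 54.3-85.3%, which treats tiles as independent and covers counting error only), beside 64.7% of all 51243 tiles in that table, which lies inside the interval. In the knockout comparison 12 of 14 tiles were higher in E (85.7%, interval 60.1-96.0%), beside 54.7% of all 28282 listed tiles, which lies below the interval. The order of subtraction there is inferred, and with the opposite order the share would be 14.3%. In the mix 9 of 11 tiles were higher (81.8%, interval 52.3-94.9%), beside 65% of 20986, inside the interval. The members less than 1 point past the threshold of 25 points were, in the knockdown comparison, the NOTCH4 tile 3′ of the gene (25.1 points), DLL1 exons 6 to 8 (-25.5 points) and NOTCH1 exon 18 (25.8 points), and, in the mix, NOTCH1 exons 22 to 24 (25.1 points), NOTCH3 intron 1 (-25.7 points) and JAG2 exons 1 and 2 (-25.8 points), and tiles just under it are not listed. As the tiles were chosen by listing and lie together in 8 genes, these shares describe the members and are no test.

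The share of reachable tiles that were listed was near the background. It was 27 of 192 (14.1%, interval 9.85-19.7%) in the knockdown comparison, beside 11.8% of the reachable tiles in the windows of all protein-coding genes. It was 12 of 192 (6.25%, interval 3.61-10.6%) in the knockout comparison, beside 6.16%, and 11 of 192 (5.73%, interval 3.23-9.97%) in the mix, beside 4.88%. All 3 backgrounds lay inside the intervals of the members. Of the 38 reachable tiles within 2 kb of a TSS of the 10 genes, 7 were listed in the knockdown comparison (18.4%, background 15.1%), 5 in the knockout comparison (13.2%, interval 5.75-27.3%, background 5.38%) and 4 in the mix (10.5%, background 6.44%). The knockout background fell just under its interval and the other 2 inside theirs. Counting unreachable tiles too, the tiles within 2 kb of a TSS that were higher in E were 4 of 8 in the knockdown comparison. They were 4 of 5 in the knockout comparison and 2 of 4 in the mix. Over all listed tiles at any place the shares higher in E were 64.7%, 54.7% and 65%. Of the 5 knockout tiles 2 belong to DLL4, and the reachable fragment of its exon 4 tile is centred 2340.5 bp past the TSS. The counts are small, the genes were chosen with earlier results known, and the difference from the background was not tested. The median absolute difference of the members was 43.3, 46.2 and 33.8 points in the 3 comparisons, beside 50.0, 41.9 and 36.9 points for all listed tiles.

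By role, 10 of 12 receptor tiles, 9 of 14 ligand tiles and 2 of 3 target tiles were higher in E in the knockdown comparison. In the knockout comparison these were 5 of 5, 6 of 8 and 1 of 1, and in the mix 5 of 6, 2 of 3 and 2 of 2. The tiles lower in E near a ligand all belonged to JAG2 and DLL1.

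**Figure D1:**
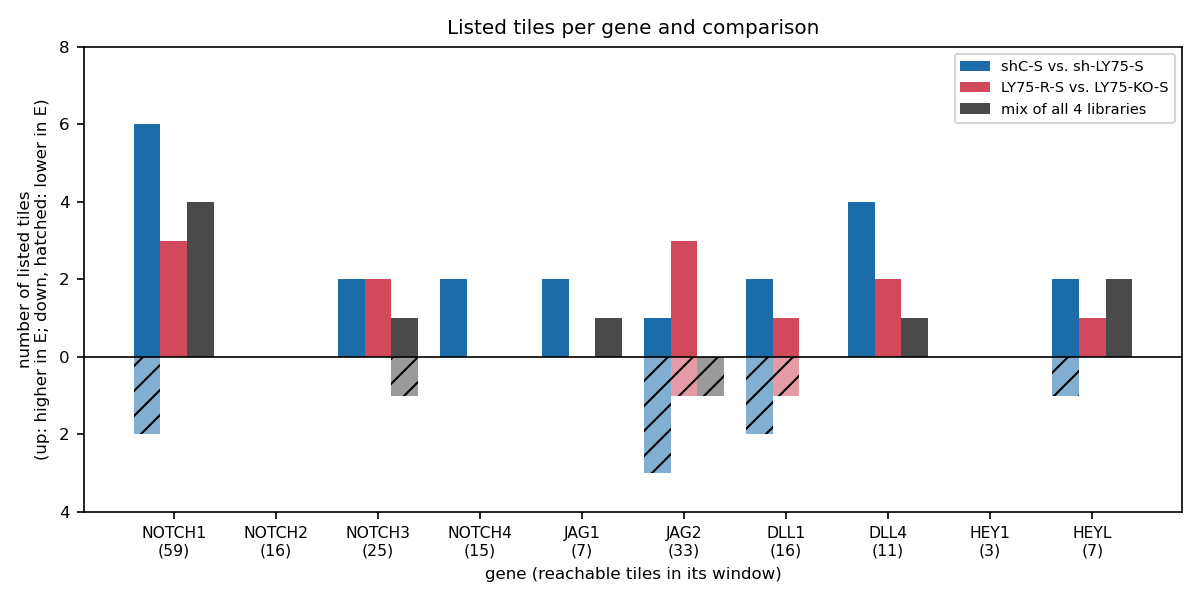
Number of listed tiles per gene in each comparison (bars up: higher in E, bars down and hatched: lower in E), with the number of reachable tiles of the gene's window under its name. NOTCH1 has the highest count, 8 tiles in the knockdown comparison among 59 reachable tiles, and NOTCH2 and HEY1 have none.

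NOTCH1, a receptor with a long array of EGF-like repeats outside the cell, spans chr9:139388885-139440500 on the minus strand. It had 12 listed tiles, all but 2 of them more methylated in E and none within 2 kb of a TSS. Its own TSS tile holds 136 CpGs, 84 of them within predicted reads, and was listed in no table. In the 5′ part of the gene, intron 2 held 6 listed tiles. The tile at chr9:139435001-139436000 was 58.2 points higher in E in the knockdown comparison. The next tile, at chr9:139434001-139435000, was listed in the mix alone, with 53.3 points. Farther into the intron, 3 tiles were listed in the knockout comparison alone, at chr9:139433001-139434000 (32.2 points), chr9:139431001-139432000 (50.0 points) and chr9:139428001-139429000 (32.9 points). The sixth, at chr9:139419001-139420000, was lower in E by -26.1 points in the knockdown comparison. Thus both single comparisons listed tiles in intron 2, but no tile of NOTCH1 was listed in both.

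Further along NOTCH1 the listed tiles came from the knockdown comparison, with 3 of them also in the mix. The tile at the border of intron 4 and exon 5 (chr9:139414001-139415000), which also holds the microRNA gene MIR4673 and the NOTCH1 fragment shown above, was 57.9 points higher in E in the knockdown comparison and 33.8 points in the mix. The tile over exons 22 to 24 (chr9:139401001-139402000; 482 coding bases) was 33.1 points higher in the knockdown comparison and 25.1 points in the mix, close to the threshold. In all NOTCH1 tiles listed in both, the value of the mix was the smaller one. Exon 18 (chr9:139404001-139405000) had 25.8 points and intron 33 (chr9:139392001-139393000, with 10 bases of exon 34, the last exon) 40.2 points in the knockdown comparison. Outside the transcript, a tile 3′ of the gene (chr9:139386001-139387000) was higher by 43.3 points in the knockdown comparison and by 27.2 points in the mix. Upstream of the gene, 2501 bp before the TSS and within NALT1, a long noncoding RNA gene, the tile at chr9:139443001-139444000 was lower in E by -66.7 points in the knockdown comparison.

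NOTCH3, the receptor best known from vascular smooth muscle and amplified in some ovarian cancers, spans chr19:15269849-15311806 on the minus strand and had 5 listed tiles in 2 clusters, in the first 6 kb and in the last exon. The intron 2 tile at chr19:15306001-15307000 (76 CpGs) was 90.0 points higher in E in the knockdown comparison and 52.3 points higher in the mix. It was not listed in the knockout comparison. The tile over exon 2 (chr19:15308001-15309000) was 100 points higher in the knockout comparison, in a tile with 19 CpGs and no CpG within predicted reads. Nearer the start, the intron 1 tile at chr19:15310001-15311000 (806 bp from the TSS) was lower in E by -25.7 points in the mix and listed in neither single comparison. Thus the 5′ part of NOTCH3 held values of both signs within 5 kb. In exon 33, the last exon, which codes for the end of the intracellular domain, neighbouring tiles were listed in different comparisons. The tile at chr19:15272001-15273000 was 67.8 points higher in the knockdown comparison, and that at chr19:15271001-15272000, which holds 525 coding bases and 475 bases of the 3′ UTR, was 49.0 points higher in the knockout comparison.

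NOTCH4, a receptor mostly of endothelium, spans chr6:32162620-32191844 on the minus strand. The tile that holds its TSS and exon 1 (chr6:32191001-32192000) was 100 points higher in E in the knockdown comparison and listed in no other. This is a CpG-poor start: the tile has 20 CpGs and no MspI fragment of 40 to 220 bp. The other tile (chr6:32160001-32161000), with 25.1 points in the knockdown comparison, just past the threshold, lies 3′ of NOTCH4 in GPSM3, within 2 kb of the TSS of that gene. It had the largest q-value of the members (0.000134), and 1 of its 3 fragments shares a read start with another place in the genome.

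For NOTCH2, whose span is chr1:120454176-120643366 on the minus strand, no tile was listed among 16 reachable ones. Its TSS tile has 70 CpGs, 16 of them within predicted reads, and 8 of the 21 fragments in its window share a read start with another place in the genome. A tile that is not in a table was either below a threshold or not covered, and these cannot be told apart.

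**Figure D2:**
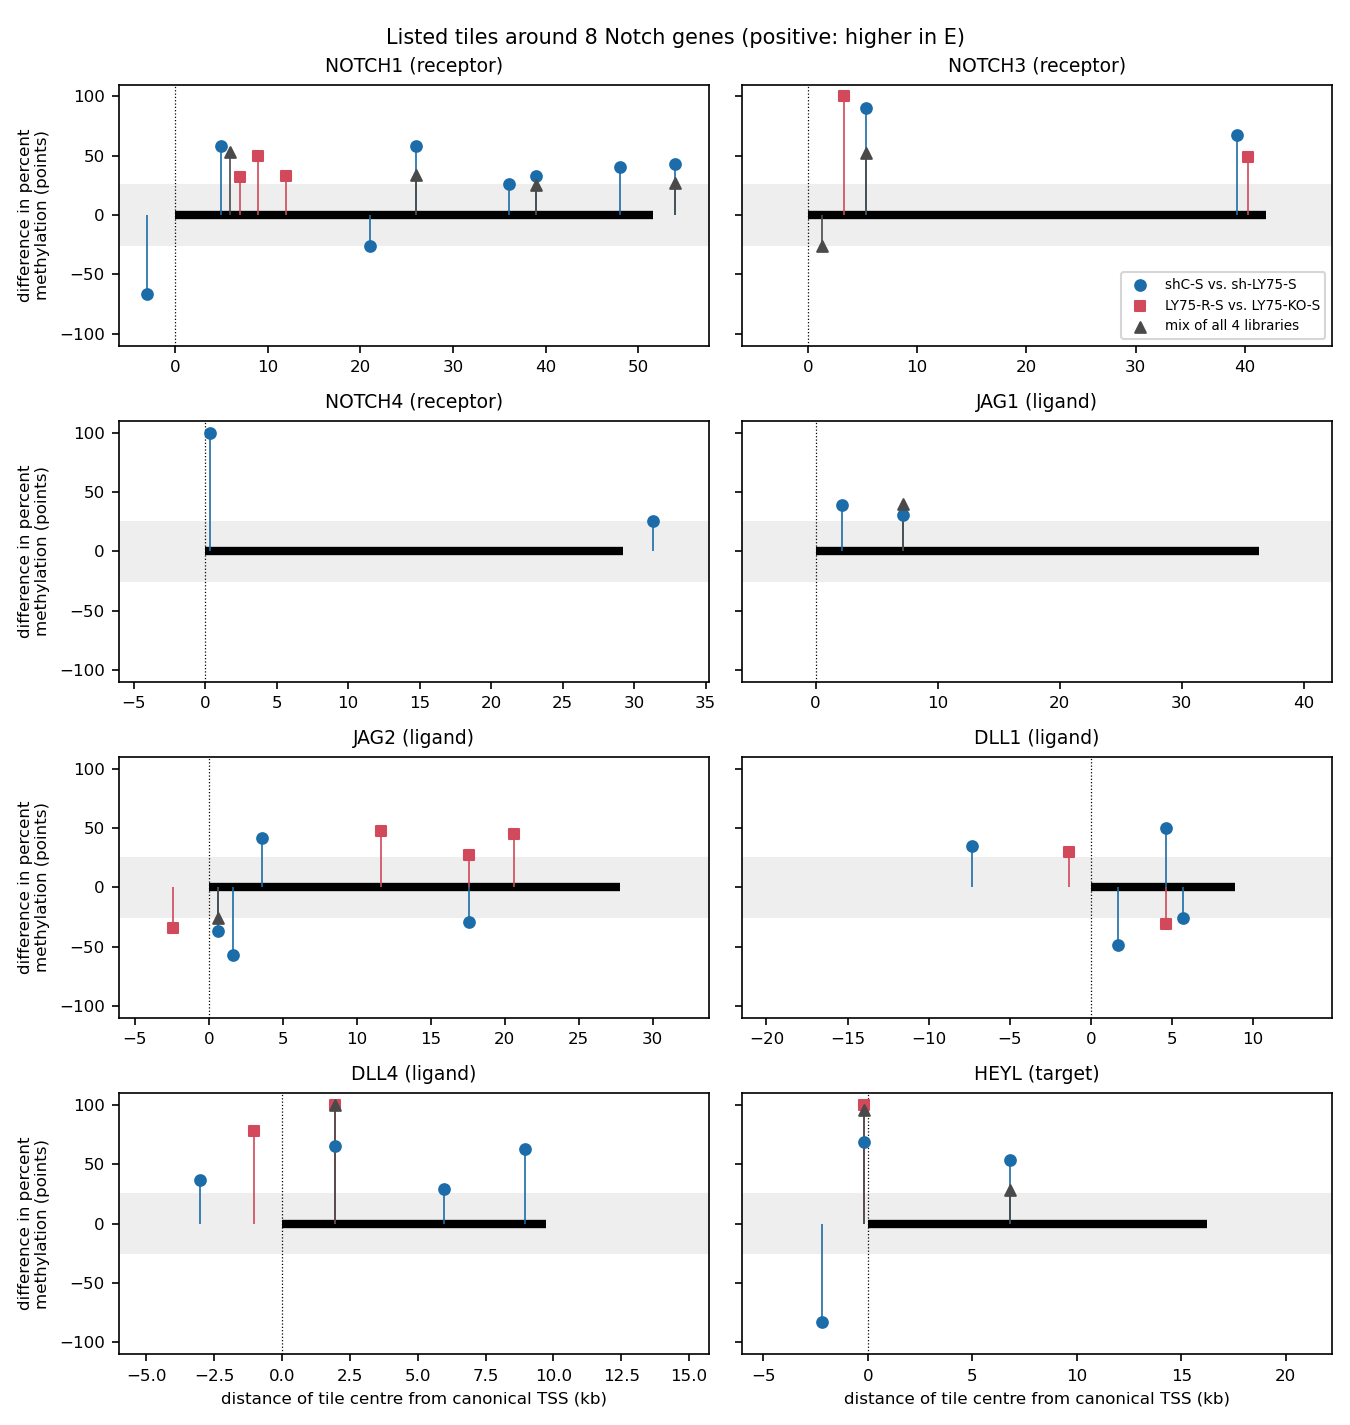
Listed tiles around the 8 genes with any, as the difference in percent methylation (points, E minus M) against the distance of the tile centre from the canonical TSS (kb, negative upstream); the black bar is the transcribed region from that TSS, the dotted line the TSS, and the grey band the range under 25 points that the tables leave out. All 7 values at DLL4 are positive, and the 4 values at JAG2 tiles within 2 kb of a TSS are negative.

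DLL4, the Delta ligand of sprouting endothelium, spans chr15:41221538-41231271 on the plus strand and had 5 listed tiles, every one more methylated in E. These 5 were among 11 reachable tiles of its window. The exon 4 tile (chr15:41223001-41224000, 1463 bp past the TSS) was higher in E by 65.4 points in the knockdown comparison, by 100 points in the knockout comparison and by 100 points in the mix. It has 35 CpGs, of which 3 lie within predicted reads, all in the DLL4 fragment shown above. A value of 100 points in the mix needs every M read to be unmethylated and every E read methylated, and on the same reads the knockdown value would then be 100 points too, so the listed values do not rest on the same set of reads or CpGs. This was not peculiar to DLL4, since 27 of the 86 tiles at 100 points in the mix and listed in both single comparisons had a single value under 99.9.

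Upstream of DLL4 2 tiles in CpG-dense sequence were listed, each in 1 single comparison. The tile 538 bp before the TSS (chr15:41220001-41221000; 69 CpGs) was 78.4 points higher in E in the knockout comparison. The tile 2538 bp before the TSS (chr15:41218001-41219000; 76 CpGs) was 36.6 points higher in the knockdown comparison. The TSS tile itself, with 85 CpGs and 61 within predicted reads, was listed in no table. Within the gene, exon 8 (chr15:41227001-41228000) was higher by 29.1 points and exon 11, the last exon (chr15:41230001-41231000, mostly 3′ UTR), by 63.0 points, both in the knockdown comparison.

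JAG2, a Jagged ligand, spans chr14:105607319-105635161 on the minus strand, and its 7 listed tiles had both signs. The 3 within 2 kb of a TSS were all less methylated in E. The tile that holds the canonical TSS, with 107 CpGs and 58 within predicted reads, was listed in no comparison. The tile at 113 bp from the canonical TSS, over exons 1 and 2 (chr14:105634001-105635000), holds 162 CpGs, the most of the 41 tiles. It was lower in E by -37.1 points in the knockdown comparison and by -25.8 points in the mix. The next tile, in intron 2 (chr14:105633001-105634000; 72 CpGs), was lower by -57.4 points in the knockdown comparison. The upstream tile at chr14:105637001-105638000, 1840 bp from the nearest TSS, was lower by -34.6 points in the knockout comparison. The single comparisons listed different JAG2 tiles near the start, and with the opposite order of subtraction the upstream tile of the knockout comparison would be higher in E.

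In the body of JAG2, 3 tiles were higher in E and 1 differed in sign. In the knockdown comparison the other intron 2 tile (chr14:105631001-105632000) was higher by 41.4 points. In the knockout comparison intron 3 (chr14:105623001-105624000) was higher by 47.4 points and exons 16 to 18 (chr14:105614001-105615000) by 45.0 points. The tile over exons 8 to 12 (chr14:105617001-105618000; 58 CpGs, 7 within predicted reads), which code for EGF-like repeats, had -29.5 points in the knockdown comparison and 27.2 points in the knockout comparison, and it was not listed in the mix. Some JAG2 tiles, among them those of introns 2 and 3, also overlap an unnamed noncoding gene.

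DLL1, the other Delta ligand, spans chr6:170591294-170615653 on the minus strand, and its 5 tiles had both signs. Its canonical TSS, from which distances are given here, is at chr6:170600166. The span runs past it, so the tiles called upstream lie inside the span. Near the start, exon 2 (chr6:170598001-170599000; 96 CpGs) was lower in E by -48.4 points in the knockdown comparison, and a tile 835 bp upstream (chr6:170601001-170602000) was higher by 30.0 points in the knockout comparison. The tile over exon 5 (chr6:170595001-170596000; 29 CpGs, 6 within predicted reads, all in the DLL1 fragment shown above) had 50.0 points in the knockdown comparison and -30.7 points in the knockout comparison. It is the second of the 2 tiles with opposite signs, and it was not in the mix either. Exons 6 to 8 (chr6:170594001-170595000) were lower by -25.5 points, near the threshold, and a tile 6835 bp upstream (chr6:170607001-170608000; 5 CpGs) was higher by 34.9 points, both in the knockdown comparison. The 2 upstream tiles also lie in the span of FAM120B, the neighbouring gene. Both the exon 2 tile and the tile 835 bp upstream lie within 2 kb of a TSS of FAM120B.

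JAG1, the other Jagged ligand, spans chr20:10618332-10654647 on the minus strand and had 2 listed tiles of 7 reachable ones, both in intron 2 and higher in E. The tile 1647 bp from the TSS (chr20:10652001-10653000) was higher by 38.6 points in the knockdown comparison. The tile at chr20:10647001-10648000 was higher by 30.6 points in the knockdown comparison and by 39.9 points in the mix, without being listed in the knockout comparison. No JAG1 tile was listed in the knockout comparison.

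HEYL, a HEY family repressor, spans chr1:40089107-40105315 on the minus strand and, like DLL4, had a tile listed in all 3 comparisons. The tile with its TSS, exon 1 and the 250 bases printed above (chr1:40105001-40106000; 92 CpGs, 44 within predicted reads) was higher in E by 68.3 points in the knockdown comparison, by 99.9 points in the knockout comparison and by 95.8 points in the mix. A difference of 99.9 points means that nearly all reads of LY75-KO-S and nearly none of LY75-R-S were methylated there. None of its 4 reachable fragments shares a read start with another place in the genome. The second tile, over exon 2 (chr1:40098001-40099000; 64 CpGs), was higher by 53.5 points in the knockdown comparison and by 28.6 points in the mix. The third, 1686 bp upstream (chr1:40107001-40108000), was lower in E by -82.9 points in the knockdown comparison. It has 17 CpGs, and its 1 reachable fragment shares a read start with another place in the genome. At HEYL, then, the TSS tile and the upstream tile had opposite signs in the same comparison, and the TSS tile was the one listed in all 3.

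The HEYL promoter sequence also holds the letters to which RBPJ, the DNA-binding partner of Notch, is known to bind. The motif searched was GTGGGAA on either strand (TTCCCAC in reverse), in the RefSeq promoter windows of 250 bases before to 50 after each start. It was present in 2194 of 35116 windows (6.25%), and among the 8 Notch genes looked up it was found at HEYL, as 1 match, from position -178 relative to the TSS and on the strand opposite to the gene. The other 7 (NOTCH1, NOTCH2, NOTCH3, NOTCH4, JAG1, JAG2 and DLL4) had no match in their windows, and DLL1 and HEY1 were not searched. In the sequence printed above the match reads ttcccaC, and its last base is the C of a CpG, within a CpG-rich MspI fragment (chr1:40105438-40105537; 17 CpGs in 100 bases). A match of 7 letters is a description and not a binding site.

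For HEY1, the other HEY target, no tile was listed. Its window had 3 reachable tiles, all within 2 kb of a TSS, and its TSS tile holds 140 CpGs with 68 within predicted reads. The presence of a listed TSS tile at HEYL and its absence at HEY1 is a listing in the tables, and the difference between the genes was not tested.

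**Figure D3:**
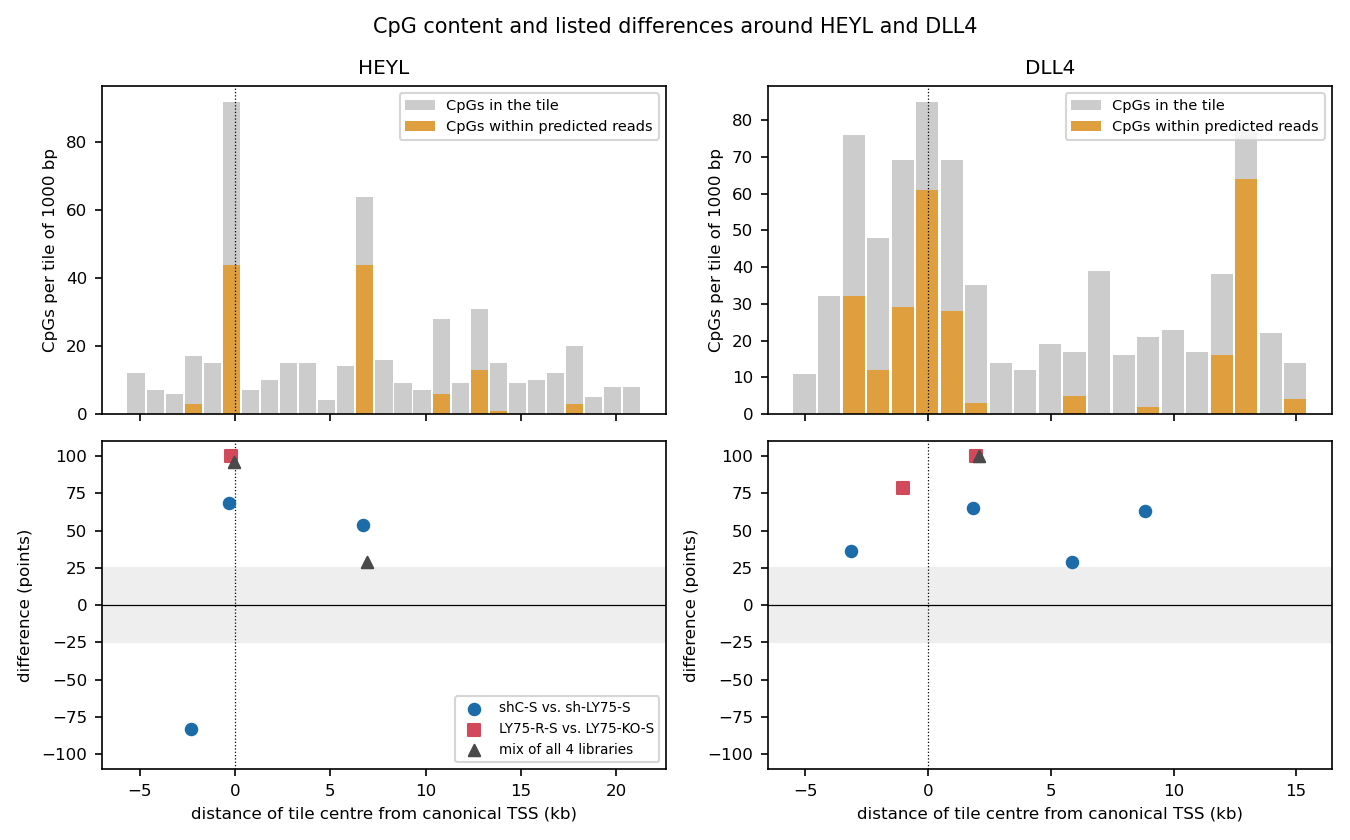
CpGs per tile of 1000 bp (grey) and those within predicted reads (orange) above, and the listed differences (points, E minus M, grey band: under 25 points) below, against the distance of the tile centre from the TSS (kb), for HEYL and DLL4; points of one tile are shifted slightly sideways. The HEYL tile listed in all 3 comparisons has 44 CpGs within predicted reads and the DLL4 one 3.

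The 2 single comparisons, which share no library, had 4 tiles in common: HEYL at the TSS and DLL4 exon 4, higher in E in both, and JAG2 exons 8 to 12 and DLL1 exon 5, with opposite signs. The mix holds the libraries of both, so its listing is not an independent observation. It listed 9 of the 29 knockdown tiles, each with the same sign, 2 of the 14 knockout tiles, and 2 tiles of its own (NOTCH1 intron 2 and NOTCH3 intron 1). In 3 of the 9 (JAG1, DLL4 and HEYL) the value of the mix was the larger one.

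Differences of 100 points were found in tiles with few CpGs in reach. At the Notch genes these were NOTCH4 exon 1 and NOTCH3 exon 2, with 0 CpGs within predicted reads, and DLL4 exon 4, with 3. Over all tiles listed in the knockdown comparison 13.1% were at 100 points in either direction, with a median of 2 CpGs within predicted reads, beside 4 in the other tiles. In the knockout comparison the share was 9.37%, with medians of 2 and 3. Of the members' tiles, 4 (NOTCH1 intron 2 at chr9:139431001-139432000, NOTCH3 exon 2, NOTCH4 exon 1 and DLL1 at 6835 bp upstream) had no CpG in reach of the predicted reads and were nevertheless listed, so the predicted fragments do not hold all that the libraries read. By contrast, the HEYL TSS tile and the NOTCH3 intron 2 tile (90.0 points) had 44 and 38.

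**Figure D4:**
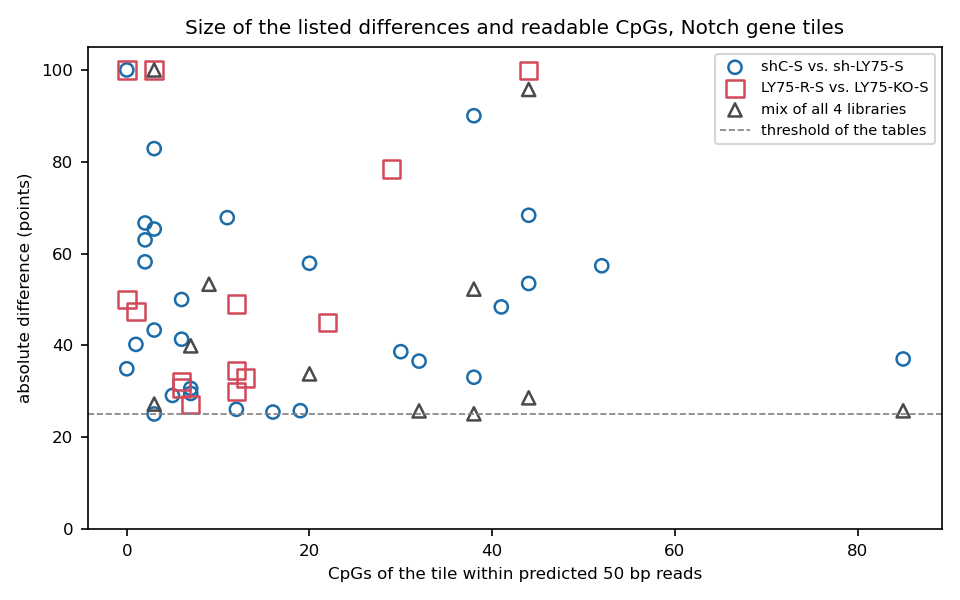
Absolute difference (points) of each listed Notch gene tile against the number of its CpGs within predicted reads of 50 bases, for the 3 comparisons; the dashed line is the threshold of the tables. The points at 100 have 0 or 3 such CpGs, while HEYL stands at 44 with 99.9 and 95.8.

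The rest of the pathway was looked at through 62 further genes grouped by role. In the knockdown comparison 48 of them had a listed tile in their window, beside 60.3% of all 20163 protein-coding genes, with 69 of 124 tiles higher in E (55.6%, beside 64.7% of all listed tiles). In the knockout comparison 37 genes had one, beside 46.8% of all genes, with 46 of 89 tiles higher (51.7%, beside 54.7%), and in the mix 26 genes, beside 38.2%, with 27 of 46 higher (58.7%, beside 65%). For the 10 Notch genes the corresponding numbers with a listed tile were 8, 6 and 6; these shares were not matched for gene length or CpG content. With the opposite order of subtraction in the knockout comparison the share higher in E would be 48.3% for the 62 genes and 14.3% for the 10 Notch genes. The share of all listed tiles would be 45.3%. On which side of the background either lies thus depends on that order, and the opposite one goes against the sign of the fit described above. By role, the tiles higher in E in the knockdown comparison were 4 of 13 at the other ligands, 8 of 11 at genes of ligand endocytosis, 2 of 6 at the glycosyltransferases, which modify the receptors' EGF-like repeats, and 5 of 8 at the proteases. They were 13 of 16 at genes of the nuclear complex, 19 of 41 at the corepressors, 12 of 15 at genes of receptor turnover and 6 of 14 at the other target genes. The ligands outside the 10 genes thus had 4 of 13 tiles higher, and the 4 ligands among the 10 genes 9 of 14. By gene the latter were DLL4 4 of 4, JAG1 2 of 2, DLL1 2 of 4 and JAG2 1 of 4. In the knockout comparison the 2 sets of ligands had 5 of 10 and 6 of 8, and in the mix 2 of 5 and 2 of 3. These differences were not tested.

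Within 2 kb of a TSS, 24 of the 62 genes had a listed tile in the knockdown comparison, beside 30.1% of all protein-coding genes, 8 in the knockout comparison, beside 14.2%, and 5 in the mix, beside 15.2%. Among the other target genes these were 8 of 9, with 2 of the 8 tiles higher in E, and 1 of 9 in the knockout comparison; the count of 9 genes is small and was not tested against the background. A tile within 2 kb of a TSS that all 3 comparisons listed was found at 2.61% of all protein-coding genes, at none of the 62 and at 2 of the 10 Notch genes (HEYL and DLL4). The DLL4 tile counts here by its nearer edge, while its one reachable fragment is centred 2340.5 bp past the TSS. The 10 genes were chosen with earlier results of these data known, and the difference between the lists was not tested.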

How the data were processed

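RRBS was done on 4 libraries of SKOV3 clones, 1 per clone. Per the labels, the authors' processing notes name FastQC, Trim Galore 0.4.1, Bismark 0.16.1 and hg19; libraries were compared with methylKit in tiles of 1000 bp. The authors' deposited tables hold, for each tile past the thresholds, a difference in percent methylation (points) with its p-value and its adjusted p (q-value); all are columns of comparisons, used here as descriptions, as no level per library was at hand. Reads and coverage were not used here, so the precision of each difference is unknown, and RRBS reads can be copies of 1 molecule.

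Tiles were placed with GENCODE release 44 (GRCh37) on the canonical transcript, and TSSs were those of basic transcripts. MspI digestion in silico (fragments of 40 to 220 bp, reads of 50 bases) gave the reachable tiles. Shares have 95% Wilson intervals; no test between conditions was made. The code was tested on simulated data. All 10 genes were named with every listed tile, and of other pathway genes, counts. The members and lists were chosen with earlier results of these data known. Alternatives changed the thresholds, window, overlap, TSS and fragments. The scripts ran under Python 3.11.15 with matplotlib 3.10.9 for the plots, pysam 0.24.0 for the reference, and scipy 1.17.1, pandas 2.3.3 and numpy 2.4.6.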

Additional observations from a re-analysis of the deposited data

Results flagged for a closer look

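At 2 tiles the single comparisons moved in opposite directions, with 1 library on each side, so the difference was not tested. The JAG2 tile over exons 8 to 12 had -29.5 points in the knockdown comparison and 27.2 points in the knockout comparison. The DLL1 tile over exon 5 had 50.0 points and -30.7 points. With the opposite order of subtraction in the knockout comparison these 2 tiles would have equal signs, and the HEYL TSS tile and the DLL4 exon 4 tile opposite ones. That order goes against the positive coefficient of the knockout comparison in the fit (0.43). It also goes against the mix of the same libraries, which had 95.8 points at HEYL and 100 points at DLL4.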

How the results depend on the processing

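Of 82 values recomputed with other settings, 70 stayed within 1.5 times the count or within the interval of the share, 11 moved and 1 reversed. With differences of at least 50 points the tiles numbered 13, 5 and 4 (knockdown, knockout, mix), those within 2 kb of a TSS 5, 3 and 2, and the share higher in E was 100% in the knockout comparison and the mix. Within 1 kb of a TSS there were 3 tiles in the knockdown and 3 in the knockout comparison. Among tiles with any CCGG site, 8.53% were listed in the knockdown comparison; this denominator holds more tiles by construction. With the opposite order of subtraction 14.3% of the knockout tiles were higher in E. The 2 tiles in every comparison were found under each of the 3 alternatives run for them. No paired analysis was possible because each clone has 1 library, and no replicate could be left out. Without read counts the coverage minimum could not be varied. The TSS of the longest coding transcript gave the same counts as all basic TSSs.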
